A study of Mus musculus with 16 samples.

Results

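Retinoic acid genes were examined in the longitudinal muscle and myenteric plexus (LMMP) of mouse colon. The 9 genes were picked by symbol from a table of 56748 genes: the retinaldehyde dehydrogenases Aldh1a1, Aldh1a2 and Aldh1a3, the retinoic acid receptors Rara, Rarb and Rarg, the cellular retinoic acid binding proteins Crabp1 and Crabp2, and the hydroxylase Cyp26b1. Retinoic acid is made from vitamin A in a pair of oxidation steps, and the retinaldehyde dehydrogenases carry out the last of them. Inside the cell, binding proteins carry it to nuclear receptors, which bind DNA together with retinoid X receptors, or to enzymes of the CYP26 family, which hydroxylate it for removal. In the embryonic gut, retinoic acid made by the mesenchyme acts on the neural crest cells that colonise the bowel and form the enteric nervous system.

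The study compared mice homozygous for a disrupted endothelin B receptor gene (Ednrb -/-, allele Ednrb tm1Ywa), a model of Hirschsprung disease (HSCR), with their WT (Ednrb +/+) littermates. The mice were C57BL6/J-129Sv hybrids used at 2 to 4 weeks of age. The study included males and females and does not give the sex of each sequenced animal. Proximal and distal LMMP were sequenced in 16 libraries, 4 for each genotype and segment, and pooling is not stated. The allele is carried in every cell from conception, so no result below belongs to a chosen cell type, and the study describes the distal colon of the HSCR mice as having few or no ganglia. The titles name proximal and distal colon, whereas the tissue field reads proximal colon for every library. The groups followed the titles.

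The libraries held between 21384372 and 45831881 counted reads, of which mitochondrial genes took between 4.32% and 49.8%. Smooth muscle markers summed to 22915 CPM (counts scaled by library size) or more in 15 libraries and to 4208 CPM in HSCR proximal 2. That library stood apart in other lists too, with the highest epithelial mean of all 16 (9.48 log2 CPM) and the lowest mesothelial (-3.26) and fibroblast (5.48) means. B and plasma cell markers summed to at most 8.57 CPM. Markers of the intestinal epithelium, a layer that is removed in an LMMP preparation, ranged from 15.3 to 13276 CPM. Ednrb was measured at 64.5, 33.8, 67.1 and 53.0 CPM in WT proximal, 7.84, 11.9, 37.4 and 35.3 in HSCR proximal, 11.8, 15.7, 29.5 and 43.0 in WT distal, and 94.7, 5.43, 6.10 and 9.48 CPM in HSCR distal libraries 1 to 4. Counts over a whole gene do not show which exons were read. The library labelled HSCR distal 1 had the highest Ednrb level of all 16. Its mean over 10 enteric neuron markers was 5.38 log2 CPM, against -1.02 to 1.31 in the other HSCR distal libraries, and its mean over posterior Hox genes was 1.75, inside the WT proximal range of 0.62 to 2.65. HSCR distal 4 also fell in that range, at 2.25, with the lowest neuron mean of all. The library labelled HSCR proximal 1 had a posterior Hox mean of 3.64 log2 CPM, inside the WT distal range of 2.89 to 4.23. Its neuron mean of 1.66 was close to the 2.41 of HSCR proximal 2 and so does not set it apart, whereas HSCR proximal 3 and 4 had 6.50 and 6.14. HSCR distal 1, HSCR distal 4 and HSCR proximal 1 thus went against their segment labels on the mean log2 CPM of the posterior Hox genes. On the summed CPM of these genes, HSCR proximal 1 (221) again lay inside the WT distal range of 198.5 to 295. HSCR distal 1 (134) and HSCR distal 4 (116) lay below that range but above the WT proximal range of 53.9 to 83.2. Of these libraries, HSCR distal 1 and HSCR proximal 1 are called doubted below, and HSCR distal 4 was not left out with them. Results that rest on the doubted libraries, or on HSCR proximal 2, are also given without those libraries. The Aldh1a2 shares are an exception, and the library is named there instead.

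The members spanned a wide range of levels. On the FPKM scale, which divides by gene length and so allows genes to be compared, Aldh1a1 ranked first in every group, with means of 33.4 in WT proximal, 52.2 in HSCR proximal, 30.4 in WT distal and 35.7 FPKM in HSCR distal. Aldh1a2 followed in WT proximal at 32.8 ± 16.5 FPKM (SD, n = 4), a level whose library range overlapped that of Aldh1a1. Rarg, Aldh1a3, Rara and Crabp1 had group means between 2.61 and 13.8 FPKM, and neighbours among them overlapped in every group. Rarb and Cyp26b1 had group means between 0.341 and 1.13 FPKM. Crabp2 was listed at 0 FPKM in every WT proximal library and reached 1.77 ± 2.75 FPKM in HSCR distal. The step from Aldh1a3 down to Rarb was free of overlap between libraries in both proximal groups.

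**Figure D1:**
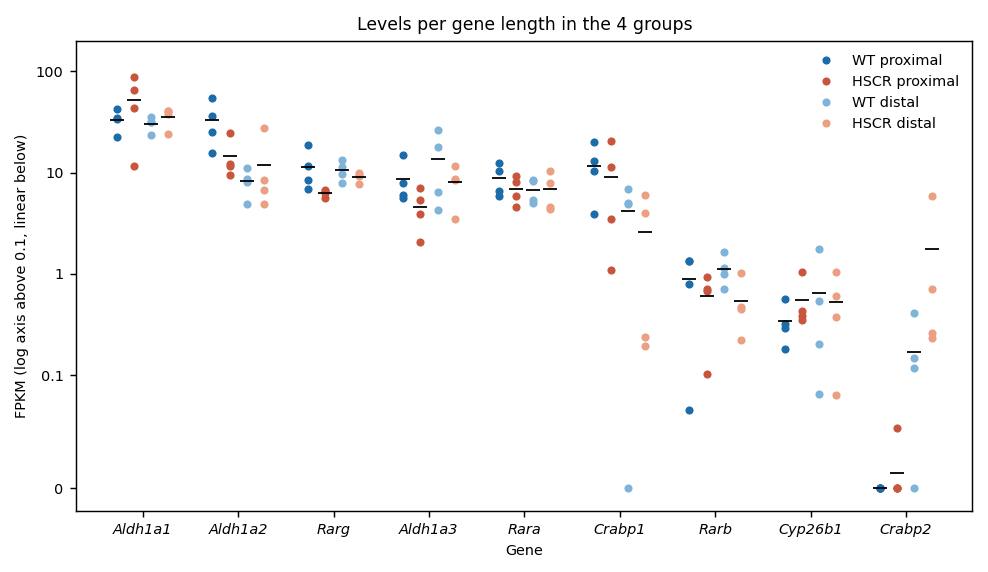
Level per gene length (FPKM, log axis above 0.1 and linear below) of the 9 genes, 1 point per library in 4 groups of 4, with group means as bars. Aldh1a1 has the highest mean in each group, Rarb and Cyp26b1 lie near or below 1, and Crabp2 is at 0 in WT proximal libraries.

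Within families the shares shifted between groups. Of the summed FPKM of the dehydrogenases, Aldh1a2 made up 42.1% ± 11.1 (SD, n = 4) in WT proximal, 23.9% ± 11.7 in HSCR proximal, 16.2% ± 6.11 in WT distal and 19.2% ± 11.2 in HSCR distal. The HSCR means leaned on single libraries. The highest HSCR proximal share, 40.9%, was that of HSCR proximal 2, and the highest HSCR distal share, 35.7%, that of the doubted HSCR distal 1. The lowest shares of these groups were 14.3% and 12.1%. The WT proximal libraries, at 33.5% or more, all lay above the WT distal libraries, at 22.9% or less. Of the summed receptor signal, Rarg made up 46.1% to 56.9%, Rara 36.9% to 49.3% and Rarb 3.11% to 6.19% on average.

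Each comparison was tested with edgeR's quasi-likelihood test across all genes that passed a filter on low counts. A gene was called with a log2 fold change beyond 1 and a Benjamini-Hochberg adjusted p under 0.05. The comparisons share groups (each group enters a comparison of genotypes and a comparison of segments), so they are not independent of each other. In HSCR against WT proximal colon, 0 of 8 tested members were called, as were 0% of all genes; 2 members had an unadjusted p under 0.05 (6.62% of all genes) and 1 had groups that did not overlap (4.78% of all genes). In the distal colon, 0 of 9 members were called (0% of all genes), 1 had an unadjusted p under 0.05 (2.64%) and 0 had groups free of overlap (1.83%). That member is Crabp2, which passed the filter there through its HSCR libraries, so its place in this count is no support for a difference. Between distal and proximal colon in WT, 0 of 8 members were called (0.0181% of all genes, or 3 genes), and Aldh1a2 had both an unadjusted p under 0.05 (5.23%) and groups free of overlap (4.26%). Between the segments in HSCR, 0 of 9 members were called (0% of all genes), and the 2 with an unadjusted p under 0.05 (1.49%) also had groups free of overlap (1.27%). Crabp2 is among these and passed the filter there through its distal libraries alone, so its place in this count is no support for a difference. For the difference of the genotype effect between segments, 0 of 9 members were called (0% of all genes) and 1 had an unadjusted p under 0.05 (1.44%).

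Other tools gave more calls, over all genes and among the members. RUVr with 4 factors and a likelihood ratio test, the procedure named by the study, called 1 of 8 members in the proximal colon (15.9% of all genes), 0 of 9 in the distal colon (6.57%), 2 of 8 between segments in WT (11.4%), 1 of 9 between segments in HSCR (3.11%) and 0 of 9 for the difference of effects (1.74%). RUVr was coded anew here and used the limits given above. The study's methods name a lower fold limit, whereas its volcano plot used a log2 fold change beyond 1. DESeq2 called 0 members in the proximal colon (1.2% of all genes), 0 in the distal colon (0.195%), 1 between segments in WT (0.371%), 1 between segments in HSCR (0.0192%) and 0 for the difference of effects (0.0312%). The member called by both tools between segments in HSCR is Crabp2, which has 2 reads in all in the proximal libraries, so these calls are no support for a difference either. The called members are named with their values beside each gene.

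Aldh1a2, on chromosome 9 (mm39, 71123071 to 71203525, plus strand), encodes the main retinaldehyde dehydrogenase of embryonic mesenchyme and mesothelium. Its levels were 54.4, 35.8, 87.8 and 124 CPM in WT proximal libraries 1 to 4, and 18.8, 11.0, 19.5 and 28.3 CPM in WT distal libraries. HSCR proximal libraries had 57.6, 20.3, 27.9 and 27.8 CPM, and HSCR distal libraries 62.5, 10.6, 20.7 and 16.2 CPM. The WT segments did not overlap, and in each HSCR group the library numbered 1, doubted on its markers, was the highest.

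Across the WT segments, Aldh1a2 was 75.4 ± 38.6 CPM (SD, n = 4) in the proximal and 19.4 ± 7.07 CPM in the distal colon, a ratio of 3.89. Distal over proximal gave a log2 fold change of -1.96 with an SE of 0.42, at an unadjusted p of 0.00101 and an adjusted p of 0.803 by edgeR's quasi-likelihood test. DESeq2 gave -1.98 with an adjusted p of 0.00838, and RUVr -1.89 with an adjusted p of 1.54e-10, and both called it. The same sign was found in libraries 1 and 2 alone, at -1.62, and in libraries 3 and 4 alone, at -2.15, whose library names follow different patterns. In the same libraries the mean over mesothelial markers was 3.27 log2 CPM in WT proximal and 2.08 in WT distal, and that over neuron markers 6.69 and 5.21. Epithelial markers averaged 0.75 and 4.39 log2 CPM and glial markers 6.30 and 5.24, and the mitochondrial share ran from 7.32% to 49.8% in WT proximal and from 4.32% to 23.7% in WT distal libraries. The part of these in the result was not tested. In bulk tissue, fewer cells of a type and less RNA per cell cannot be told apart, here or for any gene below.

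Between the genotypes in the proximal colon, Aldh1a2 was 33.4 ± 16.5 CPM in HSCR (SD, n = 4), which is 2.26-fold below WT. HSCR over WT gave a log2 fold change of -1.19 with an SE of 0.46, at an unadjusted p of 0.0278 and an adjusted p of 0.747 by edgeR's quasi-likelihood test. RUVr gave -1.18 with an adjusted p of 7.36e-06 and called it. Without the library HSCR proximal 1 the log2 fold change was -1.57, and the remaining 3 HSCR libraries lay below all 4 WT libraries. Without HSCR proximal 2 it was -1.02. The difference was -0.37 in libraries 1 and 2 and -1.90 in libraries 3 and 4. Enteric neuron markers averaged 6.69 log2 CPM in WT and 4.18 in HSCR proximal libraries, mesothelial markers 3.27 and 2.17, and epithelial markers 0.75 and 6.38, and their part was not tested.

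In the distal colon the direction of Aldh1a2 depended on the library HSCR distal 1. With it, HSCR averaged 27.5 ± 23.7 CPM (SD, n = 4) against 19.4 ± 7.07 CPM in WT, a log2 fold change of 0.53 (SE 0.57). Without it, HSCR averaged 15.9 ± 5.03 CPM and the log2 fold change was -0.31. Between HSCR segments the log2 fold change was -0.28 (SE 0.59) with all libraries and -0.73 without both doubted libraries. The genotype effect on Aldh1a2 differed between segments by 1.71 on the log2 scale (SE 0.75), at an unadjusted p of 0.0369 and an adjusted p of 1.00 by edgeR's quasi-likelihood test. That difference was 1.24 without the doubted libraries, and 0.84 without HSCR distal 1 alone.

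**Figure D2:**
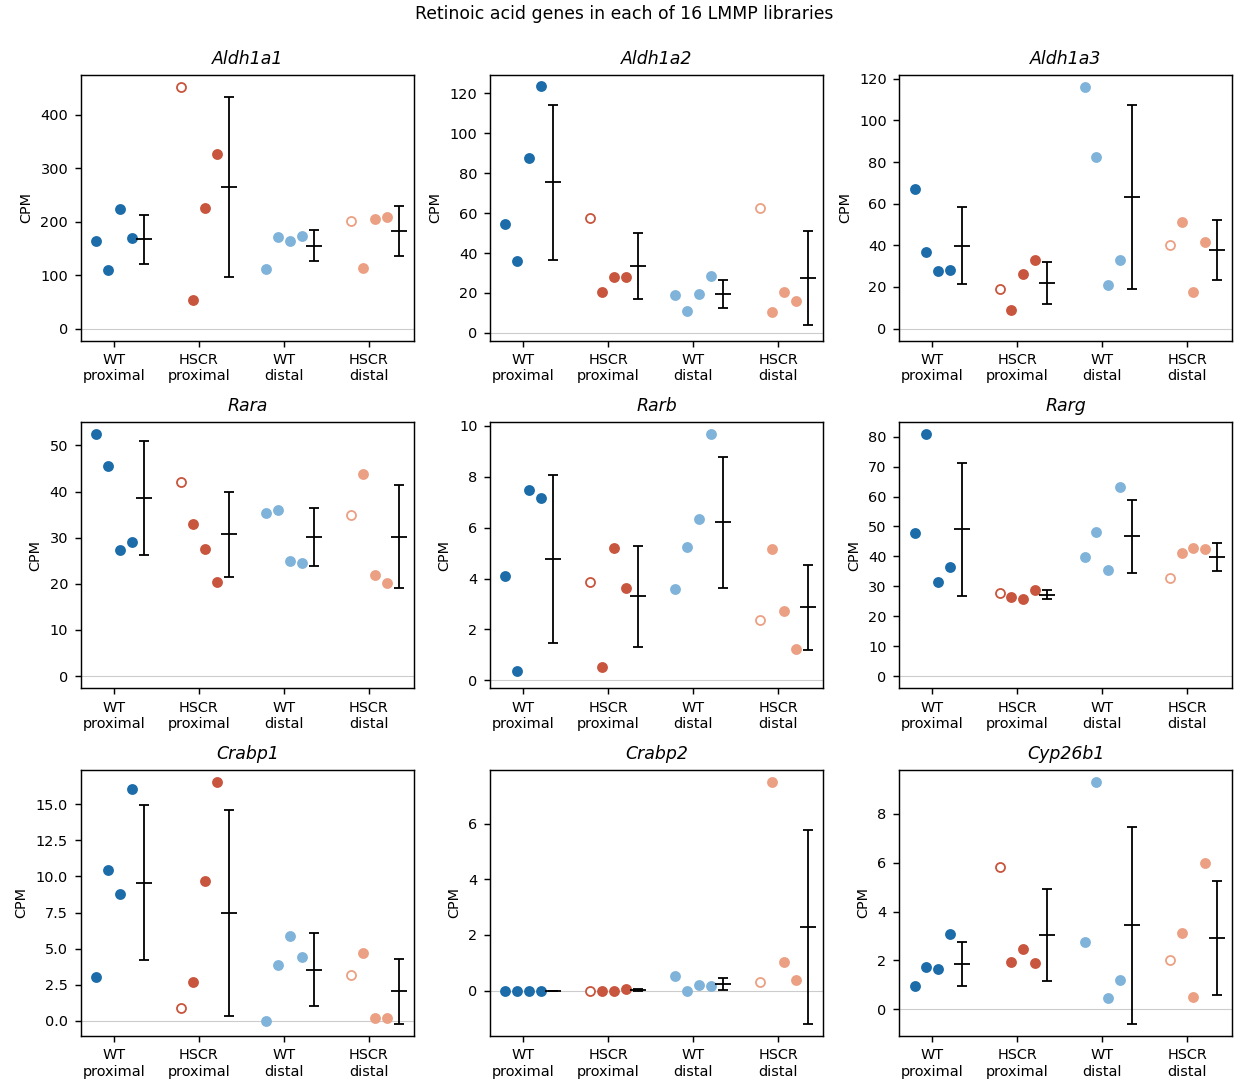
Level (CPM, linear axes that differ between panels) of each of the 9 genes in every library, 1 point per library in order of replicate number, with the group mean and SD beside the points. Open symbols mark HSCR proximal 1 and HSCR distal 1. Aldh1a2 separates WT proximal from WT distal, Rarg forms a narrow band in HSCR proximal, and Crabp2 is highest in 1 HSCR distal library.

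Aldh1a1, on chromosome 19 (mm39, 20470079 to 20620829, plus strand), encodes a cytosolic enzyme that oxidises retinaldehyde and other aldehydes. Its levels were 164, 111, 223 and 170 CPM in WT proximal, 453, 54.1, 226 and 327 CPM in HSCR proximal, 111, 171, 164 and 173 CPM in WT distal, and 202, 114, 205 and 210 CPM in HSCR distal libraries 1 to 4. All groups overlapped, and the spread was widest in HSCR proximal, where the 4 libraries held both the highest and the lowest value of the series. The log2 fold change of HSCR over WT was 0.65 (SE 0.55) in the proximal and 0.24 (SE 0.27) in the distal colon, and that of distal over proximal -0.10 (SE 0.26) in WT and -0.57 (SE 0.56) in HSCR, none with an unadjusted p under 0.05. The proximal genotype estimate rested on single libraries: it was 0.28 without HSCR proximal 1, the library with the highest level, and 0.99 without HSCR proximal 2, the library with the lowest. Without both doubted libraries the segment difference in HSCR was -0.27. Reads shared with the near-identical paralog Aldh1a7, which averaged 2.83 to 5.48 CPM, cannot be assigned with certainty.

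Aldh1a3, on chromosome 7 (mm39, 66040638 to 66077265, minus strand), encodes the third retinaldehyde dehydrogenase, known from epithelia and sensory organs. Levels were 66.9, 36.6, 27.8 and 28.3 CPM in WT proximal, 18.9, 9.09, 26.2 and 32.7 CPM in HSCR proximal, 116, 82.3, 20.9 and 32.9 CPM in WT distal, and 39.9, 51.3, 17.5 and 41.7 CPM in HSCR distal libraries. Within WT, libraries 1 and 2 were higher than libraries 3 and 4 in both segments. The log2 fold change of HSCR over WT was -0.90 (SE 0.45) in the proximal and -0.74 (SE 0.58) in the distal colon, and the proximal value was -0.65 without HSCR proximal 2. In libraries 1 and 2 alone the genotype difference was -1.92 proximally and -1.11 distally, whereas in libraries 3 and 4 it was 0.06 and 0.05, so the difference did not hold within the latter. In the proximal colon RUVr gave -0.94 with an adjusted p of 0.00285, which is short of the fold limit.

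The receptors are ligand-activated transcription factors. Rarg, on chromosome 15 (mm39, 102143373 to 102165952, minus strand), had 47.9, 80.9, 31.4 and 36.3 CPM in WT proximal and 27.8, 26.3, 25.7 and 28.8 CPM in HSCR proximal libraries. In the distal colon it had 39.8, 48.1, 35.4 and 63.3 CPM in WT and 32.9, 41.2, 42.7 and 42.5 CPM in HSCR. The HSCR proximal libraries lay close together and below every library of the other groups.

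Rarg was thus 27.2 ± 1.43 CPM (SD, n = 4) in HSCR and 49.1 ± 22.2 CPM in WT proximal colon. HSCR over WT gave -0.87 on the log2 scale (SE 0.32), at an unadjusted p of 0.0240 and an adjusted p of 0.747 by edgeR's quasi-likelihood test. It stayed at -0.87 without HSCR proximal 1 and was -0.53 without WT proximal 2, the library with the highest level. RUVr gave -0.74 with an adjusted p of 0.00909, short of the fold limit. Within HSCR, Rarg was 1.47-fold higher in the distal colon, a log2 fold change of 0.53 (SE 0.22) at an unadjusted p of 0.0377 and an adjusted p of 1.00 by the same test, and 0.60 without the doubted libraries. Neither the distal genotype difference, at -0.22 (SE 0.24), nor the segment difference in WT, at -0.08 (SE 0.34), had an unadjusted p under 0.05.

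Rara, on chromosome 11 (mm39, 98818644 to 98865768, plus strand), overlapped in all groups. Its levels ran from 27.4 to 52.4 CPM in WT proximal, 20.3 to 42.0 in HSCR proximal, 24.4 to 36.0 in WT distal and 20.2 to 43.7 CPM in HSCR distal libraries. The group means were 38.6, 30.7, 30.2 and 30.2 CPM in that order. The largest log2 fold change in the 4 comparisons was -0.35 (SE 0.33), for HSCR over WT in the proximal colon. In the distal colon the estimate was 0.01 (SE 0.35), and its sign changed with small changes of the processing.

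Rarb, on chromosome 14 (mm39, 5650540 to 6038924, plus strand), is itself a classical target gene of retinoic acid, switched on through an element in its promoter. Such elements are made of a pair of 6-base copies (AGGTCA or the variant AGTTCA, and likewise GGGTCA or the variant GGTTCA, each on either strand) in the same direction, separated by 5, 2 or 1 bases. These letters were searched on both strands in the 300 bases around each annotated start (250 before and 50 after) of 32851 promoters that RefSeq lists for the GRCm38.p6 build, of which 12 belonged to 7 members. A spacing of 5 was found in 0.0974% of all promoters, and among the members in Rarb only. The spacings of 2 and 1 were found in 0.268% and 0.222% of promoters and in no member. Among 25 other retinoic acid genes with a promoter in the table, Cyp26a1, another classical target that encodes a retinoic acid hydroxylase, held a spacing of 5, and the carotenoid oxygenase gene Bco1 a spacing of 1. The elements with a spacing of 5 are shown, with the copies and the spacer in capitals, because Rarb and Cyp26a1 are used as readouts of retinoic acid and Rarb is a member. The Rarb window lies at chr14:5894228-5894257 (GRCm39, plus strand, inside the gene), with the element 53 to 37 bases before the RefSeq start. The Cyp26a1 window lies at chr19:37686218-37686247 (GRCm39, printed on the strand opposite to the gene), with the element 32 to 16 bases before the start. A match of letters is a description and was not tested for binding.
Rarb: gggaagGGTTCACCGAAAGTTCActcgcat
Cyp26a1: acaaattAGTTCACCCAAAGTTCAtcttta

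Rarb had 4.09, 0.367, 7.46 and 7.17 CPM in WT proximal, 3.87, 0.519, 5.20 and 3.64 CPM in HSCR proximal, 3.57, 5.25, 6.34 and 9.68 CPM in WT distal, and 2.37, 5.18, 2.71 and 1.23 CPM in HSCR distal libraries. Library 2 was the lowest of both proximal groups. In the distal colon HSCR averaged 2.87 ± 1.66 CPM (SD, n = 4) against 6.21 ± 2.58 CPM in WT. This was a log2 fold change of -1.09 (SE 0.56), at an unadjusted p of 0.0839 and an adjusted p of 1.00 by edgeR's quasi-likelihood test, and -1.02 without HSCR distal 1. The groups overlapped, and the difference was -0.30 in libraries 1 and 2 against -2.09 in libraries 3 and 4. In the proximal colon it was -0.55 (SE 0.91), and -0.20 without HSCR proximal 2. Cyp26a1, whose promoter holds the like element, stayed at or below 1.10 CPM in every library and was not tested in any comparison.

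The binding proteins Crabp1 and Crabp2 were the members with 0 reads in at least 1 library. Crabp1, on chromosome 9 (mm39, 54672032 to 54680394, plus strand), binds retinoic acid in the cytosol and is known from developing neurons. It had 3.01, 10.4, 8.75 and 16.1 CPM in WT proximal, 0.924, 2.66, 9.71 and 16.6 CPM in HSCR proximal, 0, 3.90, 5.89 and 4.44 CPM in WT distal, and 3.21, 4.67, 0.169 and 0.206 CPM in HSCR distal libraries. The 4 libraries under 1 CPM (HSCR proximal 1, WT distal 1, HSCR distal 3 and HSCR distal 4) had neuron marker means of 1.66, 2.10, 0.84 and -1.02 log2 CPM, and those above 8 CPM had means of 6.14 or more. Other libraries did not follow this order: HSCR distal 2 had 4.67 CPM at a neuron mean of 1.31, below that of HSCR proximal 1, and WT distal 3 had 5.89 CPM at a neuron mean of 7.34. This is a description over libraries that also differ in segment and depth.

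**Figure D3:**
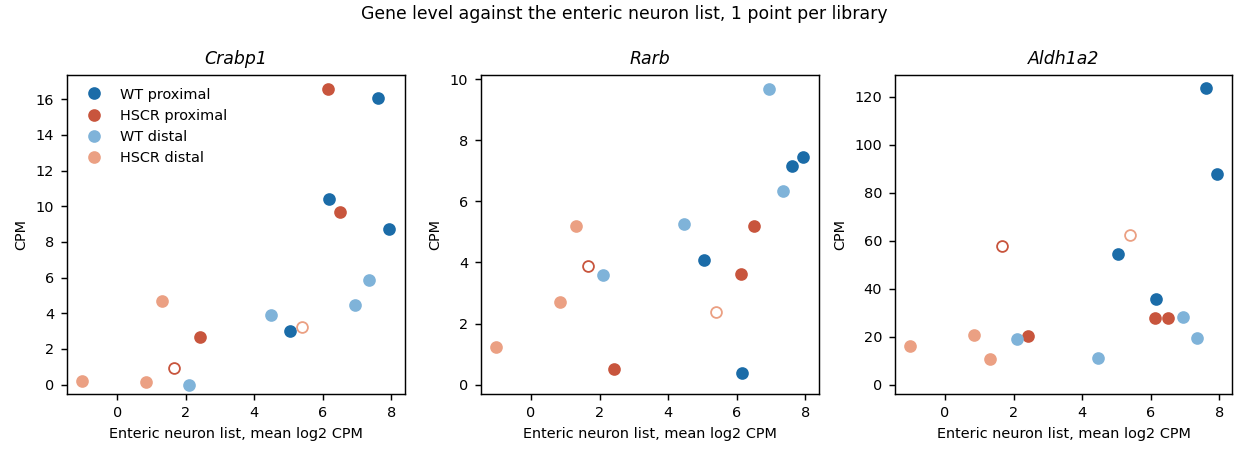
Level (CPM) of Crabp1, Rarb and Aldh1a2 in each of 16 libraries against the mean log2 CPM of 10 enteric neuron markers in the same library, coloured by group, with HSCR proximal 1 and HSCR distal 1 as open symbols. The libraries with over 8 CPM of Crabp1 all have a neuron mean of 6.14 or more, HSCR distal 2 has 4.67 CPM at a neuron mean of 1.31, and Aldh1a2 ranges from 19.5 to 124 CPM among libraries with a neuron mean above 7.

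In the segment comparisons Crabp1 was 2.69-fold lower in the distal colon of WT and 3.62-fold lower in that of HSCR. On the log2 scale the changes were -1.44 (SE 1.11) and -1.85 (SE 1.24), at unadjusted p of 0.227 and 0.173, and the HSCR value was -2.52 without both doubted libraries and -1.07 without HSCR proximal 4. RUVr gave -2.52 in WT with an adjusted p of 0.0136 and called it. By edgeR's quasi-likelihood fit the WT value was -1.02 without WT distal 1, the library with 0 reads. The WT difference was -4.56 in libraries 1 and 2 and -1.21 in libraries 3 and 4. For HSCR over WT the estimates were -0.37 (SE 0.84) in the proximal colon, or 0.02 without HSCR proximal 1, and -0.72 (SE 1.46) in the distal colon, or -1.03 without HSCR distal 1. The distal estimate was 4.03 in libraries 1 and 2 and -4.67 in libraries 3 and 4, opposite in sign. WT distal 1, with 0 reads, and the low HSCR distal 3 and 4 set those values.

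Crabp2, on chromosome 3 (mm39, 87855973 to 87860683, plus strand), carries retinoic acid to its nuclear receptors. It had 0 reads in all 4 WT proximal libraries, and 0, 0, 0 and 2 reads in HSCR proximal libraries. In the distal colon it had 16, 0, 10 and 7 reads in WT, or 0.515, 0, 0.207 and 0.176 CPM, and 11, 206, 36 and 16 reads in HSCR, or 0.307, 7.51, 1.02 and 0.365 CPM. Reads of Crabp2 were thus nearly confined to the distal colon, and 1 library held most of them.

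With 3 reads per library as the limit that a count of 0 allows, Crabp2 of WT mice was at least 1.70-fold higher in the distal than in the proximal colon. This bound rested on WT distal 1: in a check added after seeing the data, the mean of the other WT distal libraries was 0.127 CPM against a floor of 0.132 CPM, which leaves no bound. Over the HSCR libraries, 269 distal reads against 2 proximal reads gave a ratio of 142 (exact 95% interval 38.9 to 1177, counting error only). Without HSCR distal 2, also added after seeing the data, 63 distal reads remained and the ratio was 41.1 (10.9 to 347 by the same method). The fitted log2 fold change there was 6.96 (SE 1.76), a value that depends on the count added to each library and is no bound. It was 4.90 without HSCR distal 2 and 9.50 without HSCR proximal 4, the library with the 2 proximal reads. Its unadjusted p was 0.00344 and its adjusted p 1.00 by edgeR's quasi-likelihood test, whereas DESeq2 gave an adjusted p of 0.0289 and RUVr 0.00168, and both called it. Since the gene passed the filter there through its distal libraries alone, none of these p-values is support for a difference. For HSCR over WT in the distal colon the log2 fold change was 3.37 (SE 1.46), at an unadjusted p of 0.0466 and an adjusted p of 1.00 by edgeR's quasi-likelihood test. The gene passed the filter in this comparison through its HSCR libraries, so this p-value is no support for a difference either. Without HSCR distal 2, the library with 206 reads, the log2 fold change was 1.25, and without HSCR distal 1 it was 3.73. HSCR distal 2 also had the lowest mesothelial mean of the HSCR distal group, at -1.71 log2 CPM, and the highest adipocyte mean, at 3.52, and their part was not tested.

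Cyp26b1, on chromosome 6 (mm39, 84548396 to 84570890, minus strand), encodes a hydroxylase that removes retinoic acid. It had 0.933, 1.72, 1.66 and 3.07 CPM in WT proximal, 5.82, 1.94, 2.48 and 1.91 CPM in HSCR proximal, 2.77, 9.32, 0.475 and 1.20 CPM in WT distal, and 2.01, 3.14, 0.480 and 6.01 CPM in HSCR distal libraries. All groups overlapped. The log2 fold change of HSCR over WT was 0.69 (SE 0.63) in the proximal colon and -0.24 (SE 1.01) in the distal colon. Without HSCR proximal 1, the HSCR proximal mean fell from 3.04 to 2.11 ± 0.32 CPM (SD, 3 libraries) against 1.85 ± 0.89 CPM in WT. The segment difference was 0.95 (SE 0.92) in WT and turned to -0.30 without WT distal 2.

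**Figure D4:**
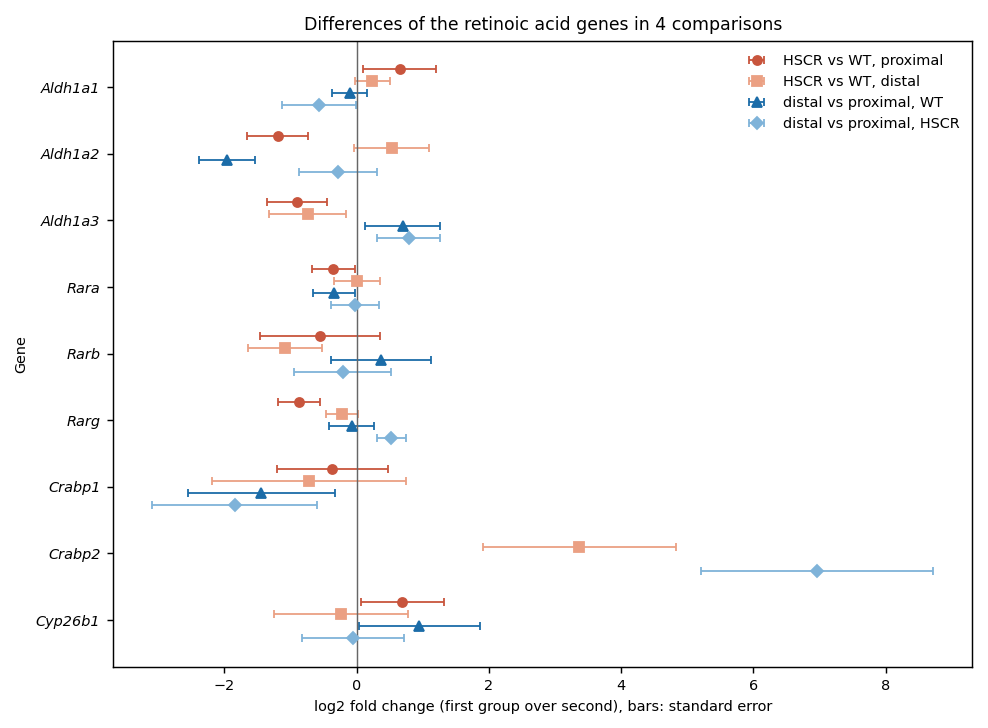
log2 fold change of each gene in the 4 comparisons (first group over second, points) with its standard error (bars), from edgeR's quasi-likelihood fits. Aldh1a2 lies at -1.96 for distal against proximal in WT and at -1.19 for HSCR against WT in the proximal colon, and Crabp2, which was not tested in comparisons that include WT proximal, has the widest bars.

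The median log2 fold change of the tested members was -0.46 in the proximal genotype comparison, against 0.04 over all genes tested, with 2 members above 0 and 6 below. It was -0.22 against 0.04 in the distal genotype comparison, -0.09 against 0.03 between segments in WT, and -0.05 against -0.04 between segments in HSCR. These medians describe the members and were not tested. Among the 3 receptors, all estimates in the proximal genotype comparison were below 0.

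Of 35 further genes of the pathway, 29 were tested in each comparison of 2 groups, and none was called by edgeR's quasi-likelihood test. DESeq2 called Rdh10 in the proximal genotype comparison (1 of 30, against 1.2% of all genes) and 0 in the others. RUVr called 6 of 29 in the proximal genotype comparison, Dhrs3 among them, against 15.9% of all genes, and 1 of 29 in the distal one (Rxrg), against 6.57%. It called 2 of 29 between segments in WT (Adh1 and Adh7), against 11.4%, 2 of 29 between segments in HSCR (Lrat and Dhrs9), against 3.11%, and 1 of 30 for the difference of effects (Dhrs9), against 1.74%. Rxrg and Adh7 are named after their values were seen. Lrat, also among the 6 called in the proximal genotype comparison, passed the filter in both comparisons through its HSCR proximal libraries. Its calls are thus no support for a difference. Adh7 lay near the floor, with 8 reads in all in WT proximal and 65 in WT distal libraries. Its log2 fold change between WT segments was 1.83 (SE 1.95), at an unadjusted p of 0.370 by edgeR's quasi-likelihood test. In the proximal genotype comparison, 2 of 29 had an unadjusted p under 0.05 upward and 1 downward, against 6.62% of all genes. Rdh10, which makes the retinaldehyde that the dehydrogenases use, had 15.6, 13.9, 15.6 and 11.5 CPM in WT and 28.7, 28.0, 32.5 and 25.3 CPM in HSCR proximal libraries, without overlap. Its log2 fold change was 1.00 (SE 0.23), at an unadjusted p of 0.00196 and an adjusted p of 0.596 by that test, and its level was 14.2 ± 1.95 CPM in WT and 28.6 ± 2.96 CPM in HSCR. Dhrs3, which converts retinaldehyde back to retinol, was 31.6 ± 10.2 CPM in WT and 63.5 ± 18.5 CPM in HSCR proximal colon (SD, n = 4), a log2 fold change of 1.00 (SE 0.33). The tested genes of retinol and retinal conversion, 6 of 8, all had estimates above 0 in this comparison, with a median of 1.00 against 0.04 over all genes. In the distal genotype comparison the 7 tested genes of the list also had estimates above 0, with a median of 0.71 against 0.04 and none with an unadjusted p under 0.05. Epithelial markers averaged 0.75 log2 CPM in WT and 6.38 in HSCR proximal, and 4.39 in WT and 5.30 in HSCR distal libraries, and their part in these values was not tested.

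In the distal genotype comparison 1 of 29 pathway genes had an unadjusted p under 0.05, against 2.64% of all genes. This was Rarres1, a gene named for its response to retinoids, with a log2 fold change of 4.25 (SE 1.62). In that comparison HSCR distal 2, the library with the most Crabp2, held 25.5 CPM and the other HSCR distal libraries 0.571 to 1.51 CPM. Rarres1 passed the filter there through its HSCR libraries, so its place in this count is no support for a difference. Between segments in WT, 4 of 29 genes had an unadjusted p under 0.05, against 5.23% of all genes, all upward in the distal colon, and 2 had groups free of overlap (4.26% of all genes). They included the alcohol dehydrogenase Adh1 at 1.70 (SE 0.71), the coactivator Ncoa3 at 0.99 (SE 0.30) and the corepressor Ncor1 at 0.61 (SE 0.23), opposite in direction to Aldh1a2. Between segments in HSCR, 2 of 29 genes had an unadjusted p under 0.05, against 1.49% of all genes. Lrat, which esterifies retinol for storage, had an estimate of -2.88 (SE 1.27) for distal over proximal, and the retinol dehydrogenase Dhrs9 one of -2.21 (SE 0.77). Lrat passed the filter there through its proximal libraries, so its place in this count is no support for a difference. No pathway gene had an unadjusted p under 0.05 for the difference of the genotype effect between segments, where 30 were tested, against 1.44% of all genes. The most abundant gene of the receptor partners was Rxra, at a mean of 96.1 CPM over 16 libraries, and of the responsive genes Tgm2, at 241 CPM. Cyp26c1 and Stra8 had 0 reads in every library.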

How the data were processed

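Poly(A) RNA of 16 LMMP libraries was sequenced. Per the labels, the authors aligned reads with HISAT2 2.2.1 to mm39, counted them with featureCounts 2.0.6 against a GENCODE model, and used edgeR. The deposited counts are whole reads per gene. The deposited FPKM values, made by the authors from these counts and the gene length, served to compare levels between genes. Deposited fold changes and p-values of the authors' comparisons were not used. The labels describe both strand-specific and non-strand kits without saying which library had which, so antisense reads cannot be told apart, and list all libraries under 1 batch. A table of the whole series holds all samples, of which 0 columns were left out, and a second file of comparisons was not used.

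CPM were computed with TMM factors over all genes and 16 libraries, and log2 CPM with a prior count of 0.5. Tests used edgeR 4.0.16 (filterByExpr, TMM, quasi-likelihood, Benjamini-Hochberg), with DESeq2 1.42.0, RUVr, RLE size factors, no filter, the replicate number or the library name series as a term, 1 fit of all libraries, no mitochondrial genes, and left-out libraries as alternatives. SE is the log2 fold change divided by the root of F. The p-values measure the spread between libraries, whose animals are not named. The scripts were tested on simulated data. The biological coefficient of variation was 0.700 to 0.794, at 21384372 to 45831881 reads per library. Their parts in the precision were not tested, and few reads limit genes such as Crabp2.

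Members and lists were chosen with earlier results of these data known. Named were the 9 members, pathway genes with an unadjusted p under 0.05 or the highest mean of their list, Ednrb, and the 3 genes most correlated with each member. Some pathway genes that this rule names are not reported here. Same-numbered libraries did not deviate together in every pair (correlations from -0.215 to 0.425), so numbers were not used as a block, and whether both segments of an animal share a number is not stated. Tables and plots were made with Python 3.11.15, numpy 2.4.6, pandas 2.3.3, matplotlib 3.10.9 and scipy 1.17.1, in addition to R 4.3.3 and limma 3.58.1.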

Additional observations from a re-analysis of the deposited data

Results flagged for a closer look

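In 6 of 35 group and gene combinations tested, 1 library of 4 stood apart from the rest, with a gap to its nearest neighbour that exceeded the 95% critical value of Dixon's test. For normally distributed values chance gives about 1 such case in 20 groups. CPM were not shown to be so distributed, and 1 library with reads among libraries with 0 is always flagged. The number of cases is therefore no test of an excess. Aldh1a1 was low in WT distal 1, at 111.4 CPM against 164 to 173 CPM in the other 3, and in HSCR distal 2, at 113.9 CPM against 202 to 210 CPM. Rarg was low in HSCR distal 1, at 32.93 CPM against 41.2 to 42.7 CPM. Cyp26b1 was high in HSCR proximal 1, at 5.82 CPM against 1.91 to 2.48 CPM. These last 2 libraries are the doubted ones, whose mean log2 CPM of position markers, like that of HSCR distal 4, went against their labels. Crabp2 was 7.512 CPM in HSCR distal 2 against 0.307 to 1.02 CPM, and 0.07061 CPM in HSCR proximal 4, which is 2 reads where the other 3 libraries had 0.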

How the results depend on the processing

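Of 786 member estimates under alternative settings, 728 kept their direction and stayed uncalled, 52 changed direction and 6 became calls. A call needs both limits, so an estimate that crossed only 1 of them stayed uncalled. No member was called in the main fits, so no call could be lost. The calls gained are given beside Aldh1a2, Crabp1 and Crabp2, and came from DESeq2 or RUVr. The number of genes called over the whole table moved most with the tool, and the cause was not tested: in the proximal genotype comparison from 0 to 237 with DESeq2, 2655 with RUVr and 4 with the library name series as a term; in the distal one from 0 to 45 and 1120 with DESeq2 and RUVr; between segments in WT from 3 to 70, 1881, 1 with the replicate block, and 0 in 1 fit of 16 libraries; between segments in HSCR from 0 to 4 and 532; and for the difference of effects from 0 to 9 and 324. Leaving out 1 library gave 0 to 2 genes between segments in WT and 0 elsewhere.

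Same-numbered libraries did not correlate above 0.1 in every pair of any 2 groups, so the numbers were not used as pairs. The library names of replicates 1 and 2 share a number across the 4 groups and those of replicates 3 and 4 do not, and the labels do not say what that number marks. Between WT segments the correlations were 0.419, 0.096, 0.273 and 0.165 for libraries 1 to 4. The replicate block called no member and moved the count of calls only in WT, from 3 to 1. It turned Rara to -0.050 and Cyp26b1 to 0.0032 in the distal genotype comparison, and Crabp1 to 0.74 for the difference of effects. The library name series as a term turned the same 3 to -0.046, 0.39 and 0.18, and Rarg between segments in WT to 0.0017. Distal Rara also became -0.0018 with DESeq2, -0.0012 with RLE size factors, -0.072 with RUVr, -0.011 without mitochondrial genes and -0.083 without HSCR distal 1, and distal Cyp26b1 0.11 with RUVr. Without HSCR proximal 1 and HSCR distal 1, the direction turned for proximal Crabp1 (0.016), distal Aldh1a2 (-0.31), Rara (0.074) and Cyp26b1 (0.60) between HSCR segments, and Aldh1a3 (-0.00044) for the difference of effects.

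Leaving out 1 library at a time turned further estimates, none of them called (the libraries that did so are in parentheses). For HSCR against WT these spanned -1.15 to 0.02 for proximal Crabp1 (WT proximal 4, HSCR proximal 1), -0.31 to 0.79 for distal Aldh1a2 (HSCR distal 1), -0.25 to 0.16 for distal Rara (WT distal 3 and 4, HSCR distal 1 and 2) and -0.85 to 0.95 for distal Cyp26b1 (WT distal 2, HSCR distal 3). Between segments in WT they spanned -0.28 to 0.039 for Aldh1a1 (WT proximal 3, WT distal 1), -0.031 to 0.64 for Rarb (WT proximal 2), -0.25 to 0.25 for Rarg (WT proximal 2, WT distal 3) and -0.30 to 1.31 for Cyp26b1 (WT distal 2). Between segments in HSCR they spanned -1.13 to 0.11 for Aldh1a2 (HSCR proximal 1), -0.26 to 0.16 for Rara (HSCR proximal 1 and 2, HSCR distal 3 and 4), -0.66 to 0.091 for Rarb (HSCR proximal 3, HSCR distal 4) and -0.68 to 0.47 for Cyp26b1 (HSCR proximal 1, HSCR distal 1 and 3). For the difference of effects they spanned -0.24 to 0.64 for Aldh1a3 (WT proximal 1, HSCR proximal 2, WT distal 3 and 4, HSCR distal 2), -1.16 to 0.39 for Crabp1 (HSCR proximal 4, HSCR distal 4), -1.17 to 3.36 for Crabp2 (HSCR distal 2) and -1.61 to 0.26 for Cyp26b1 (WT distal 2). Depth limits Crabp2, where 0 reads in a library allow up to 0.0568 to 0.215 CPM. This gene had 0 reads in WT proximal and 2 reads in all in HSCR proximal libraries. Its values for the difference of effects thus depend on the count added to each library and are no bound.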

Other observations

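Some genes outside the pathway followed the members closely from library to library. Over the 16 libraries, which differ in group, depth and mitochondrial share, and among 18619 genes, the log2 level of Crabp1 was most alike to those of Mab21l1, a neuronal developmental gene (Pearson's r = 0.943), the neuronal zinc finger factor gene Myt1l (0.908) and the kinesin gene Kif17 (0.908). Rarb was most alike to Egfem1 (0.931), Sarm1 (0.925) and Arhgef4 (0.922). Aldh1a1 followed Mr1 (0.926), Exoc4 (0.898) and the fibrillin gene Fbn1 (0.893), and Aldh1a3 followed Rgl1 (0.924), Gfpt2 (0.910) and Pid1 (0.903). The nearest to Aldh1a2 were Fam3c (0.842), Pdia4 (0.832) and Naaa (0.831). Rara came closest to Cbx1 (0.865), Chaf1a (0.858) and Inka1 (0.854), and Rarg to Zfp24 (0.886), Pura (0.863) and Msl1 (0.842). For Crabp2 they were Slco1a4 (0.833), Slc23a1 (0.791) and Spata48 (0.784), and for Cyp26b1 Cdkn1c (0.713), Psmc1 (0.692) and Wee1 (0.681). These were the highest of 18619 values each, and are a description. In libraries without reads of Crabp2, all WT proximal libraries among them, its log2 level is set by the prior count, which limits its correlations.

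Among the 36 pairs of members, the highest of the correlations was 0.463, between Aldh1a1 and Rarb, followed by 0.431 between Aldh1a3 and Rarg and 0.342 between Aldh1a2 and Crabp1, and the lowest was -0.519, between Aldh1a2 and Crabp2. The limit given above for Crabp2 also holds for its pairs. With 36 values against 18619 for each member above, the highest values of both searches are not comparable.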
